A study of Homo sapiens with 15 samples.

Results

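WNT ligands and the secreted proteins that hold them in check were followed through senescence and TXNRD1 inhibition in IMR90 human lung fibroblasts. The set was 10 genes named by symbol, 4 ligands (WNT2, WNT5A, WNT5B, WNT16), 5 secreted antagonists (DKK1, DKK3, SFRP1, SFRP2, WIF1) and the pathway target AXIN2, out of 57736 genes in the count table. All 10 had a row, and 8 passed the filter on low counts; SFRP2 and WIF1 did not. RNA from 15 libraries in 5 groups of 3 was sequenced: growing cells in the control condition, senescent cells in the control condition, senescent cells with shTXNRD1 (a short hairpin RNA against TXNRD1, the gene of cytosolic thioredoxin reductase), senescent cells given DMSO, the usual solvent for small molecules, and senescent cells given TRi-1 (Tri-1 in the labels), an inhibitor of that enzyme. The labels do not say how senescence was brought about, at what dose and for how long TRi-1 was given, how many hairpins were used, or whether the senescent control carried a control hairpin. Nor do they say whether replicates were separate cultures, so the spread behind each p-value may be technical.

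WNT proteins are lipid-modified ligands that leave the cell with the carrier WLS and bind Frizzled receptors. With the co-receptors LRP5 and LRP6 they stabilise beta-catenin, which acts with TCF/LEF factors on target genes such as AXIN2; other ligands, WNT5A among them, act largely through ROR and Frizzled receptors without beta-catenin. Dickkopf proteins such as DKK1 block LRP5 and LRP6, while SFRP proteins and WIF1 bind the ligands themselves. In lung mesenchyme WNT2 and WNT5A take part in development, and WNT16 is known from damaged and senescent fibroblasts.

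The stretches upstream of 3 members are shown because WNT16 and WNT5A rose together in senescence and DKK1 rose with the hairpin. Each is the 250 bases before a RefSeq transcript start (GRCh38.p14), written 5′ to 3′ on the gene's own strand. WNT16 lies at chr7:121328750-121328999 (plus strand), WNT5A at chr3:55481399-55481648 (minus strand, 1 of 2 starts listed) and DKK1 at chr10:52314031-52314280 (plus strand). Capitals mark motif matches.
WNT16: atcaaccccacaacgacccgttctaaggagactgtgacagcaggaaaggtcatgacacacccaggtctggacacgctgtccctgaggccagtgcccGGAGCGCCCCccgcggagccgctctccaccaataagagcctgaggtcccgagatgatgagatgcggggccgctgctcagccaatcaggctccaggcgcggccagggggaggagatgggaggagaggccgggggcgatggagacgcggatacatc
WNT5A: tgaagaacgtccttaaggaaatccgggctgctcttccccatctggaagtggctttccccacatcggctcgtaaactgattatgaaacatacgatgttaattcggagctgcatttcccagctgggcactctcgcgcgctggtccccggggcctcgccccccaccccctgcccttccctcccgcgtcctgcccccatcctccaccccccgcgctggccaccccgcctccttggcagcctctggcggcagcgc
DKK1: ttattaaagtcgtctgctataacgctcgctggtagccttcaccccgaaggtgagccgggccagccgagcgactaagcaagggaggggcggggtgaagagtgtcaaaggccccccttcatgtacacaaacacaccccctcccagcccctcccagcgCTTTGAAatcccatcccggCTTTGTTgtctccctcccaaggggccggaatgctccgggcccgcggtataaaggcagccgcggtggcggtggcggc
The capitals in DKK1 are CTTTGAA and CTTTGTT, beginning 95 and 76 bases before the start. The TCF/LEF words searched on both strands were these and also CTTTGAT and CTTTGTA, and at least 1 of the 4 stood in 12% of 35116 such windows. The capitals in WNT16 are 1 match to the kappa-B consensus on the opposite strand, a match found in 9.96% of windows. The WNT5A window held no match to either, and none of the 3 held the AP-1 word TGANTCA, found in 6.57% of windows. These are letter matches only. No overlap occurred between matches.

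Library totals ran from 18033076 to 28909046 counts, with a median of 21156213. Levels are CPM, a gene's count as a share of the TMM-scaled library total, with the SD over n = 3 libraries where a mean is given. Each change is a log2 fold change ± SE from the quasi-likelihood test of edgeR, with Benjamini-Hochberg adjustment over 15994 genes. TXNRD1 stood at 21.0 to 25.3 CPM in the shTXNRD1 libraries against 506 to 528 in senescent control. In growing cells it stood at 1525 to 1779 CPM, so it was already lower in senescent control (-1.67 ± 0.07, adjusted p = 1.12e-10 from edgeR). Its group means were 408 CPM with DMSO and 431 CPM with TRi-1. All 8 fibroblast markers were measured and their summed level was 7674 to 17209 CPM in every library, lowest in TRi-1 (7674 to 8419). The T cell gene CD3E was at 0 in all libraries. Summed leukocyte markers, mostly CD68, ranged from 15.5 to 25.5 CPM in growing cells, from 72.1 to 80.2 CPM in senescent control, from 19.5 to 38.2 CPM with shTXNRD1, from 56.3 to 73.8 CPM with DMSO and from 91.0 to 92.9 CPM with TRi-1. CD68 itself was called higher in senescence (1.85 ± 0.23) and lower with the hairpin (-1.44 ± 0.22), as were WNT16, WNT2 and WNT5B. With the hairpin 2 of the 8 fibroblast markers were called higher and 5 lower, and with TRi-1 6 of 8 were lower. Of 5 smooth muscle and pericyte markers 3 were lower in each of these comparisons, and RGS5 was higher with the hairpin (0.26 ± 0.08). Epithelial markers, mostly KRT18, summed to 45.8 to 82.8 CPM over all libraries. Of 5 tested, 1 was higher and 2 lower in senescence, and 1 was higher with TRi-1. With the hairpin 1 was higher (EPCAM, 1.74 ± 0.25) and 1 lower. CLDN4, higher in senescence, had 9 counts over the growing libraries and passed the filter through groups where it is high. That count carries no weight for it. Of 4 endothelial markers tested, 3 were higher in senescence, 1 was higher and 3 lower with the hairpin, and 2 were lower with TRi-1. CLDN5, KDR and VWF had 1, 9 and 17 counts over the growing libraries. They passed the filter through groups where they are high, so these counts carry no weight for them. Over all genes 56.9% were called in senescence, 50.7% with the hairpin and 19.9% with TRi-1. The sum of the endothelial markers, 51.7 to 172 CPM over all libraries, was mostly TEK. KDR rose with the hairpin from 0.471 to 8.24 CPM, and CDH5 was at 0 in all growing libraries and at most 0.343 CPM as a group mean. Libraries also differed in the mean GC content of their counts, from 46.0% to 48.1%. Growing control replicate 1, shTXNRD1 replicate 3 and DMSO replicate 1 were the lowest for their groups. The part of these differences in the results below was not tested beyond the fits named beside them. In bulk RNA, fewer cells expressing a gene and less RNA per cell cannot be told apart.

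Per kilobase of the longest annotated transcript, DKK3 was the most abundant member in senescent control at 414 CPM per kb, followed by WNT5A at 272, WNT16 at 47.5, WNT5B at 36.2 and SFRP1 at 25.6. On the same scale DKK1 stood at 3.21, WNT2 at 0.918 and AXIN2 at 0.300. The counts per library behind them were 68 to 497 for DKK1, 17 to 121 for WNT2 and 16 to 80 for AXIN2.

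Senescent control cells were compared with growing control cells to show how the set differed between the states. All 4 ligands rose, WNT16 by 9.44-fold, while the antagonists DKK1, DKK3 and SFRP1 and the target AXIN2 fell. That is 8 of 8 tested members, 4 higher and 4 lower, against 56.9% of all tested genes called in this comparison (27.4% higher, 29.5% lower). The median change of the 8 was 0.08, against 0.03 over all genes. For all 8 members the 3 senescent and 3 growing libraries did not overlap. How often this holds over all tested genes was not counted, so it marks no trait of the members.

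WNT16 stood at 16.9, 15.4 and 15.2 CPM in growing cells and at 150, 146 and 153 CPM in senescent control (3.24 ± 0.07, adjusted p = 4.01e-14 from edgeR). Every senescent library was thus far above every growing one. WNT5A, which signals mainly without beta-catenin, went from 732, 620 and 608 CPM to 1685, 1622 and 1732 CPM (1.36 ± 0.08, adjusted p = 3.08e-09 from edgeR). Its paralog WNT5B rose less, from 51.1, 61.2 and 61.2 CPM to 83.3, 88.2 and 78.4 CPM (0.53 ± 0.08, adjusted p = 9.07e-05 from edgeR). WNT2, a ligand of lung mesenchyme, went from 1.39, 1.44 and 1.74 CPM to 3.33, 3.61 and 4.65 CPM (1.34 ± 0.22, adjusted p = 0.000118 from edgeR), a rise of 2.53-fold from a low level.

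SFRP1, which binds WNT proteins through a Frizzled-like domain, fell from 234, 211 and 203 CPM to 114, 115 and 116 CPM (-0.91 ± 0.07, adjusted p = 6.72e-08 from edgeR). The senescent libraries lay within a few CPM of each other. DKK1, the LRP5 and LRP6 blocker, fell from 13.9, 11.1 and 10.2 CPM to 5.84, 6.18 and 5.20 CPM (-1.04 ± 0.17, adjusted p = 0.000102 from edgeR). DKK3, a divergent member of the Dickkopf family, changed less, from 1439, 1462 and 1363 CPM to 1065, 1110 and 1114 CPM (-0.37 ± 0.05, adjusted p = 1.64e-05 from edgeR). AXIN2, a scaffold of the beta-catenin destruction complex and a feedback target of the pathway, fell from 3.17, 2.84 and 1.93 CPM to 1.09, 1.48 and 1.25 CPM (-1.06 ± 0.21, adjusted p = 0.000551 from edgeR). The growing libraries were the more widely spread ones here.

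SFRP2 was nearly absent, with 1 count over the growing libraries and 0 over senescent control. WIF1 had 3 counts over all libraries, 1 in senescent control and 2 in TRi-1. A count of 0 over a group allows up to 3 counts, 0.0424 CPM in the growing group, a limit that covers counting error only.

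**Figure D1:**
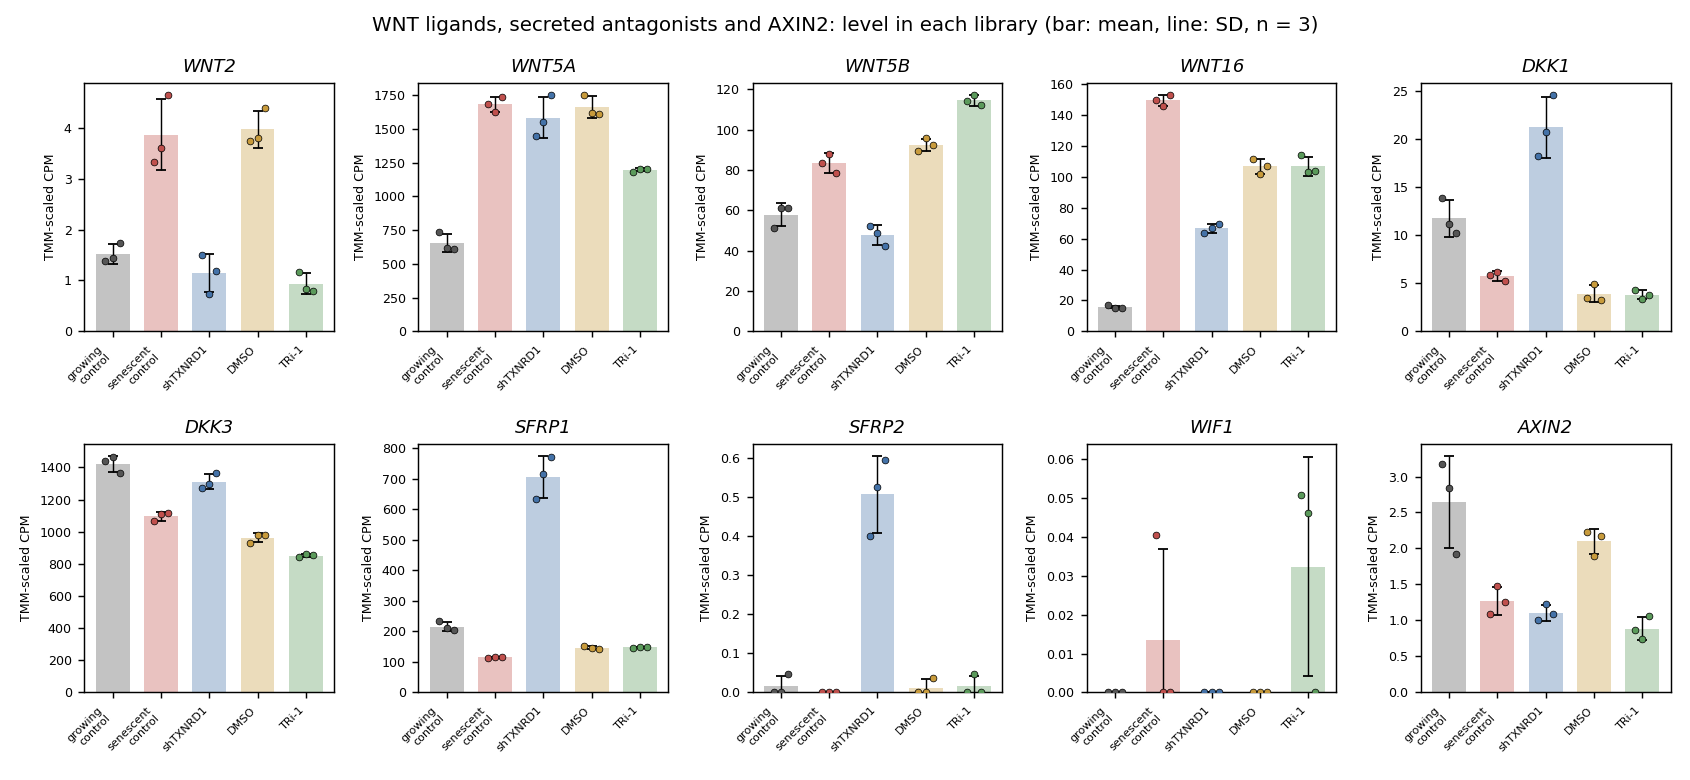
Level of each of the 10 genes in every library, on a linear axis of TMM-scaled CPM starting at 0; points are libraries, bars are means and lines are SD (n = 3). WNT16 is about 150 CPM in senescent control against about 16 in growing cells, and SFRP1 and SFRP2 are highest in the shTXNRD1 libraries.

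Senescent cells with shTXNRD1 were set against senescent control to show what differed when TXNRD1 was reduced. The comparison shares the senescent control libraries with the comparison above. The antagonists SFRP1 and DKK1 rose to levels above those of growing cells, and the ligands WNT16, WNT2 and WNT5B fell. In all 3 members were higher and 3 lower of 8, against 50.7% of all genes called (25.8% higher, 24.8% lower). The 6 called members did not overlap between groups, a count for which the share over all genes was again not taken.

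SFRP1 stood at 633, 717 and 771 CPM with the hairpin, against 114 to 116 CPM in senescent control, a 6.14-fold rise (2.62 ± 0.07, adjusted p = 7.64e-12 from edgeR). The lowest hairpin library was well above the highest of any other group, the growing library at 234 CPM. DKK1 stood at 18.2, 20.8 and 24.6 CPM, 3.69-fold above senescent control (1.88 ± 0.17, adjusted p = 4.73e-07 from edgeR) and above all 3 growing libraries. DKK3 reached 1274, 1295 and 1365 CPM (0.26 ± 0.05, adjusted p = 0.000577 from edgeR), and its highest hairpin library overlapped the lowest growing one at 1363 CPM.

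SFRP2 had 8, 12 and 12 counts in the 3 hairpin libraries and at most 1 count in any other library. Against a floor of 3 counts over the senescent control group this is at least 10.98-fold higher. The gene lay below the filter; with no filter on low counts it was called (adjusted p = 5.70e-05 from edgeR), while the difference of its hairpin and TRi-1 effects was not (adjusted p = 0.0968 from edgeR). Its level, 0.507 ± 0.0987 CPM, was still low.

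WNT16 fell to 63.7, 67.2 and 69.3 CPM (-1.16 ± 0.06, adjusted p = 2.74e-09 from edgeR), 2.24-fold below senescent control, and remained above all growing libraries. WNT5B fell to 52.0, 49.0 and 42.5 CPM (-0.80 ± 0.08, adjusted p = 2.55e-06 from edgeR), a range that overlapped growing cells. WNT2 fell 3.38-fold to 1.4996, 0.744 and 1.19 CPM (-1.76 ± 0.23, adjusted p = 1.98e-05 from edgeR), also overlapping growing cells. The ligands thus ended at different places relative to growing cells.

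WNT5A stood at 1449, 1549 and 1748 CPM with the hairpin (-0.09 ± 0.08, adjusted p = 0.387 from edgeR), overlapping senescent control. It was lowest in the hairpin library of highest GC content (47.5%) and highest in that of lowest GC content (46.0%). With the GC content of the library as a term in the model, WNT5A was called lower (-0.24, adjusted p = 9.51e-12 from edgeR), as it was without the 3 low-GC libraries (-0.16, adjusted p = 0.00387 from edgeR). AXIN2 stood at 0.9998, 1.23 and 1.09 CPM (-0.20 ± 0.22, adjusted p = 0.523 from edgeR), which does not show that it was unaffected. SFRP1 and DKK1 were likewise highest in the hairpin library of lowest GC content, and with the GC term their changes were 2.49 and 1.67 on the log2 scale.

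**Figure D2:**
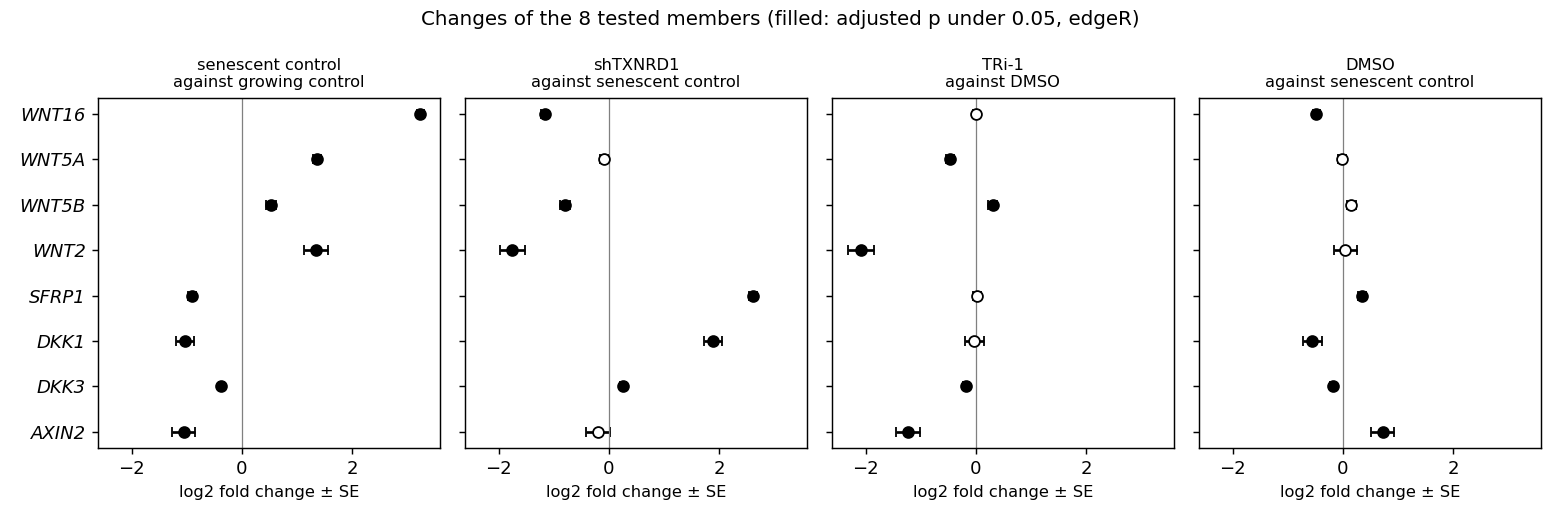
Log2 fold changes ± SE of the 8 tested members in 4 comparisons; filled points passed an adjusted p of 0.05 in edgeR. SFRP1 and DKK1 lie left of 0 in senescence and right of 0 with the hairpin, near 0 with TRi-1.

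TRi-1 was compared with its solvent DMSO to show what the inhibitor did in senescent cells. WNT2 and AXIN2 fell most, WNT5A fell and WNT5B rose. Of 8 tested members 1 was higher and 4 lower, against 19.9% of all genes called (7.64% higher, 12.2% lower). That share moved with the fit: 3176 genes were called here, 5381 with the compared groups alone and 6664 with the GC term. The antagonists SFRP1 and DKK1 and the ligand WNT16 missed the threshold with values close to 0.

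WNT2 went from 3.73, 3.80 and 4.38 CPM with DMSO to 1.17, 0.832 and 0.803 CPM with TRi-1, a 4.26-fold fall (-2.09 ± 0.23, adjusted p = 2.79e-05 from edgeR). All 3 TRi-1 libraries lay below every growing library. AXIN2 fell 2.35-fold, from 2.23, 1.90 and 2.17 CPM to 0.865, 0.739 and 1.06 CPM (-1.23 ± 0.22, adjusted p = 0.00131 from edgeR). AXIN2 was itself higher with DMSO than in senescent control (0.72 ± 0.21). WNT5A fell from 1752, 1617 and 1609 CPM to 1182, 1204 and 1203 CPM (-0.47 ± 0.08, adjusted p = 0.000841 from edgeR), between the growing and the senescent control libraries and overlapping neither.

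WNT5B rose from 89.5, 95.7 and 92.2 CPM to 114, 117 and 112 CPM (0.31 ± 0.08, adjusted p = 0.0167 from edgeR), the highest level of any group. This call was lost without DMSO replicate 1 (adjusted p = 0.0664), DMSO replicate 3 (0.0517) or TRi-1 replicate 2 (0.0674) in edgeR. DKK3 fell from 929, 979 and 981 CPM to 840, 860 and 854 CPM (-0.18 ± 0.05, adjusted p = 0.0212 from edgeR). That call was lost in edgeR without DMSO replicate 2 (0.0791) or 3 (0.0803), without TRi-1 replicate 1 (0.0816), 2 (0.0504) or 3 (0.0527), and with no low-count filter (0.169). Without DMSO replicate 3 or TRi-1 replicate 2 the number of called members was 3.

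WNT16 stood at 112, 102 and 107 CPM with DMSO and 114, 103 and 104 CPM with TRi-1 (0.00073 ± 0.061, adjusted p = 0.996 from edgeR). SFRP1 stood at 152, 144 and 142 CPM against 146, 150 and 149 CPM (0.022 ± 0.070, adjusted p = 0.861 from edgeR). It was called higher, by 0.11 on the log2 scale, only with the library GC term (adjusted p = 0.00359 from edgeR). DKK1 stood at 3.52, 4.95 and 3.30 CPM against 4.33, 3.42 and 3.76 CPM (-0.026 ± 0.18, adjusted p = 0.939 from edgeR). In these 3 members the DMSO and TRi-1 libraries overlapped.

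The hairpin and TRi-1 effects were set against each other in a test of their difference, each effect taken against its own control. They differed for 7 of 8 members, 5 higher and 2 lower, against 41.7% of all genes (22.1% higher, 19.5% lower). SFRP1 differed by 2.60 ± 0.10 (adjusted p = 5.67e-10 from edgeR) and DKK1 by 1.91 ± 0.25 (adjusted p = 3.31e-05 from edgeR), both higher with the hairpin. WNT16 differed by -1.16 ± 0.09 (adjusted p = 2.18e-07 from edgeR) and WNT5B by -1.11 ± 0.12 (adjusted p = 6.10e-06 from edgeR), both lower with the hairpin. Smaller differences were those of DKK3 (0.44 ± 0.07, adjusted p = 0.000223 from edgeR) and WNT5A (0.39 ± 0.11, adjusted p = 0.0132 from edgeR). AXIN2 differed by 1.04 ± 0.32 (adjusted p = 0.0172 from edgeR), a call lost in DESeq2 (adjusted p = 0.0648) and with the GC term (adjusted p = 0.143). WNT2 fell under both inhibitions, and the difference of its effects, 0.33 ± 0.33, missed the threshold (adjusted p = 0.436 from edgeR).

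DMSO against senescent control, the 2 senescent control groups, served as a measure of how far controls differ. It shares libraries with the comparisons above. Of 8 members 2 were higher and 3 lower, against 16.2% of all genes called (8.36% higher, 7.87% lower). The number of all genes called was 2595 here, 3981 without the 3 low-GC libraries and 6619 with the GC term. WNT16 was lower with DMSO (-0.49 ± 0.06, adjusted p = 0.000106 from edgeR) and SFRP1 higher (0.34 ± 0.07, adjusted p = 0.00398 from edgeR). AXIN2 was higher, at 2.10 ± 0.177 against 1.28 ± 0.195 CPM (0.72 ± 0.21, adjusted p = 0.0312 from edgeR). DKK1 (-0.56 ± 0.18, adjusted p = 0.0454) and DKK3 (-0.19 ± 0.05, adjusted p = 0.0185) were lower in edgeR. In edgeR the DKK1 call was lost without senescent control replicate 1, 2 or 3 or DMSO replicate 1 or 3 (adjusted p = 0.0611 to 0.180), and also with RLE scaling (0.0553) and the replicate block (0.0734), in DESeq2 (0.0523) and in limma-voom (0.0636). The DKK3 call was lost without senescent control replicate 2 or 3 or DMSO replicate 1 (adjusted p = 0.0572 to 0.0878), and with no filter (0.181). The AXIN2 call was lost without senescent control replicate 1 or 3 or DMSO replicate 1 or 3 (adjusted p = 0.0866 to 0.124), without the 3 low-GC libraries (0.0548), with no filter (0.0631) and the replicate block (0.0553), and in DESeq2 (0.0960). With 1 library left out, the number of called members was 3 without senescent control replicate 1 or 2 or DMSO replicate 3, and 2 without senescent control replicate 3 or DMSO replicate 1. WNT5A (-0.018 ± 0.079, adjusted p = 0.926), WNT2 (0.047 ± 0.20, adjusted p = 0.924) and WNT5B (0.15 ± 0.08, adjusted p = 0.256) missed the threshold in edgeR. WNT5B was called higher without the 3 low-GC libraries (adjusted p = 0.0260 from edgeR) and with the GC term (adjusted p = 7.09e-05 from edgeR). WNT5A was called lower, by a change of -0.045, with the GC term (adjusted p = 0.0403 from edgeR).

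Ordered by group mean, WNT16 ran from growing cells through shTXNRD1, DMSO and TRi-1 to senescent control, and only its DMSO and TRi-1 libraries overlapped. WNT5A ran from growing cells through TRi-1 to shTXNRD1, DMSO and senescent control, the last 3 overlapping. SFRP1 ran from senescent control through DMSO, TRi-1 and growing cells to shTXNRD1, with overlap between DMSO and TRi-1 alone. DKK1 ran from TRi-1 and DMSO, which overlapped, through senescent control and growing cells to shTXNRD1. Across the 15 libraries DKK1 and SFRP1 had a Pearson correlation of 0.873, WNT5A and WNT16 of 0.893, and WNT5B and DKK1 of -0.954. These libraries share 5 group means, so the values describe the groups and carry no test.

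The genes most like each member across the 15 libraries, among 12139 genes above a mean log2 CPM of 1, were found by Pearson correlation. For WNT16 they were the long non-coding RNA genes APPAT (0.997) and LINC00342 (0.993), and for WNT5A the cyclin CCND2 (0.990) and the cytokine TNFSF18 (0.984). For WNT5B they were PXN (0.996), a focal adhesion adaptor, and the GTPase RHOB (0.994). SFRP1 was most like SCG2 (0.993) and TNFSF4 (0.986), and DKK1 most like TRMT5 and FST, the activin-binding follistatin (both 0.984). DKK3 was most like CASP1 (0.985) and CC2D2A (0.982), WNT2 like SEMA4D (0.932) and ITGA1 (0.925), and AXIN2 like TET1 (0.964) and RNF150 (0.942).

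The other genes of the pathway were counted by list, with the share of all genes called in the same comparison as the measure beside them. Among all 19 WNT ligand genes, 10 passed the filter, WNT2, WNT5A, WNT5B and WNT16 among them. In senescence 9 of the 10 were higher, where 27.4% of all genes were. WNT4, WNT7B, WNT9A and WNT11 had 1, 27, 25 and 2 counts over the growing libraries and passed the filter through the senescent groups, where they are high, so the count carries no weight for these 4. WNT7B, a ligand of lung epithelium in development, went from 0.238, 0.452 and 0.470 CPM to 19.9, 23.5 and 19.95 CPM (5.77 ± 0.33). WNT4 had 1 count over the growing libraries and 40, 31 and 30 counts in the senescent control libraries, and was called higher. With the hairpin 2 ligands were higher and 5 lower (median -0.67, all genes -0.01), where 50.7% of all genes were called. WNT4 and WNT3, both among the lower ones, had 19 and 27 counts over the hairpin libraries. They passed the filter through other groups, where they are higher, so the hairpin count carries no weight for them. WNT4 changed by -2.35 ± 0.27, WNT9A by 1.01 ± 0.20, and WNT7B by -0.54 ± 0.22 (adjusted p = 0.0576 from edgeR). With TRi-1 1 was higher and 4 lower (median -0.21, all genes 0.01), where 19.9% of all genes were called, including WNT2B (-0.72 ± 0.16) and WNT4 (-1.04 ± 0.25).

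Of 15 antagonist genes 6 were tested. In senescence 2 rose and 4 fell (median -0.64, all genes 0.03), where 56.9% of all genes were called, the 2 that rose being DKK2, a Dickkopf family member that can block or assist LRP6 signalling (5.98 ± 0.23), and IGFBP4, an IGF-binding protein also described as a WNT inhibitor (1.33 ± 0.06). DKK2 stood at 0.198, 0.164 and 0.0470 CPM in growing cells and at 9.98, 8.40 and 9.25 CPM in senescent control. With 10 counts over the growing libraries, it passed the filter through the groups where it is high. The count of antagonists in senescence therefore carries no weight for DKK2. With the hairpin DKK2 went the opposite way to DKK1, to 0.900, 0.613 and 0.942 CPM (-3.50 ± 0.18), and IGFBP4 fell by 0.22 on the log2 scale. The count with the hairpin was 4 higher and 2 lower, with a median of 0.48 (all genes -0.01), where 50.7% of all genes were called. With TRi-1 none of the 6 antagonists was higher and 3 were lower (median -0.11, all genes 0.01), where 12.2% of all genes were lower, among them IGFBP4 (-0.41 ± 0.06) and the SFRP relative FRZB (-0.95 ± 0.24). DKK2 stood at -0.04 ± 0.14 with TRi-1 (adjusted p = 0.851 from edgeR).

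Secreted agonists and ligand release genes were 4 tested of 7. Each of the 4 was called higher in senescence, where 27.4% of all genes were. NDP and RSPO3 had 4 and 8 counts over the growing libraries and passed the filter through the groups where they are high, so the count carries no weight for them. NDP, the gene of norrin, a FZD4 ligand unrelated to WNT proteins, went from 4 counts over the growing libraries to 15.9, 18.1 and 17.9 CPM (8.12 ± 0.31). WLS, the carrier of WNT proteins to the cell surface, rose from 197 ± 10.5 to 719 ± 23.7 CPM (1.86 ± 0.08), and PORCN, which attaches their lipid, by 1.64 ± 0.24. With the hairpin NDP (-2.53 ± 0.18), WLS (-0.61 ± 0.07) and PORCN (-0.68 ± 0.23) fell, whereas RSPO3, an R-spondin that amplifies WNT signals, rose from 1.14, 0.890 and 0.850 CPM to 4.20, 4.73 and 6.44 CPM (2.40 ± 0.25). With TRi-1 NDP rose (0.61 ± 0.17) and the other 3 missed the threshold. Over all genes 50.7% were called with the hairpin and 19.9% with TRi-1.

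**Figure D3:**
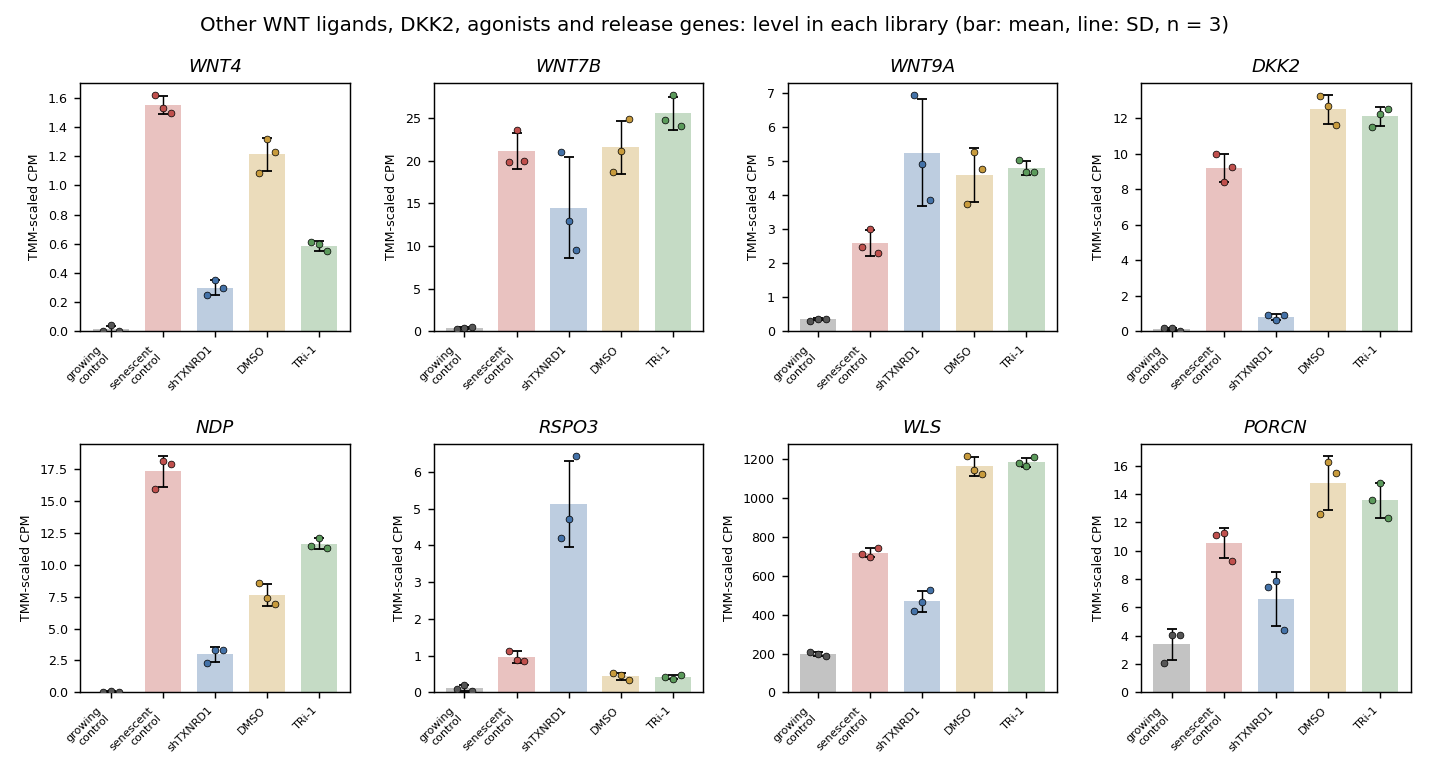
Level in every library of 8 other WNT pathway genes, on linear axes of TMM-scaled CPM from 0; points are libraries, bars means and lines SD (n = 3). DKK2 and NDP are near 0 in growing cells, high in senescent control and low with the hairpin, while RSPO3 is highest with the hairpin.

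Receptors and co-receptors, 16 tested of 21, were 3 higher and 8 lower in senescence (median -0.31, all genes 0.03), 11 of 16 where 56.9% of all genes were called. FZD3, among the higher ones, had 34 counts over the growing libraries and passed the filter through groups where it is higher. The senescence count carries no weight for it. The WNT5A receptor ROR1 changed from 73.1 to 9.95 CPM (-2.88 ± 0.09) and FZD7 from 195 to 60.0 CPM (-1.70 ± 0.07), opposite in direction to WNT5A itself. With the hairpin 7 were higher and 4 lower (median -0.04), again 11 of 16 against 50.7%, with FZD6 at -1.65 ± 0.08 and FZD4 at 1.58 ± 0.11. With TRi-1 4 of 16 were lower, against 12.2% of all genes, and the other 12 missed the threshold (median -0.21), among the 4 them the DKK1 receptor KREMEN1 (-0.95 ± 0.11) and LRP6 (-0.50 ± 0.08). Some receptor genes were lowest in the hairpin library of lowest GC content: LRP5 stood at 15.4, 7.96 and 3.52 CPM and PTK7 at 98.5, 69.7 and 41.7 CPM in the 3 hairpin libraries.

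Of 20 cytoplasmic and nuclear core genes, all tested, 4 were higher and 4 lower in senescence, 8 of 20 against 56.9% of all genes, with a median of 0.01, CSNK1E at 1.103 ± 0.18 and CSNK1A1, the priming kinase of beta-catenin, at -0.29 ± 0.06. With the hairpin 2 were higher and 8 lower (median -0.48), 10 of 20 against 50.7% and so no more than over all genes, including CTNNBIP1, an inhibitor of beta-catenin (-1.84 ± 0.12), and BTRC, its ubiquitin ligase subunit (-0.93 ± 0.08). CTNNB1, the beta-catenin gene, was higher (0.48 ± 0.07). With TRi-1 3 of 20 were lower, against 12.2% of all genes, and the other 17 missed the threshold (median 0.07), with PYGO1 at -0.41 ± 0.10 and CTNNBIP1 at -0.40 ± 0.11.

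The beta-catenin targets, 11 tested of 15 and AXIN2 among them, moved in both directions. NKD1 and NKD2 each had 3 counts over the growing libraries, and NKD1 had 52 with DMSO and 12 with TRi-1. Both passed the filter through the groups where they are high, so the counts of this list carry no weight for them. In senescence 5 were higher and 3 lower (median 0.37), 8 of 11 against 56.9% of all genes: CCND1, the cyclin D1 gene, rose (1.298 ± 0.04) and CCN4 rose (1.77 ± 0.06), against the fall of AXIN2. With the hairpin 2 were higher and 7 lower (median -0.56), 9 of 11 against 50.7%, with CCND1 at -0.59 ± 0.04 and CCN4 at -0.65 ± 0.06. With TRi-1 1 was higher and 7 lower (median -0.40), 8 of 11 against 19.9%, with CCN4 at -1.13 ± 0.06 beside AXIN2, and CCND1 higher (0.25 ± 0.04). In the beta-catenin-independent arm, 13 genes all tested, 4 were higher and 5 lower in senescence (median -0.08), 9 of 13 against 56.9%, with CAMK2D at -1.81 ± 0.08 and VANGL1 at -0.74 ± 0.05. The hairpin gave 3 higher and 6 lower (median -0.15), 9 of 13 against 50.7%, with PRICKLE2 at -0.995 ± 0.07 and PRICKLE1 at -0.86 ± 0.09, and TRi-1 gave 2 higher and 1 lower (median -0.19), 3 of 13 against 19.9%, with VANGL2 at -1.11 ± 0.14 and VANGL1 at 0.19 ± 0.05.

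**Figure D4:**
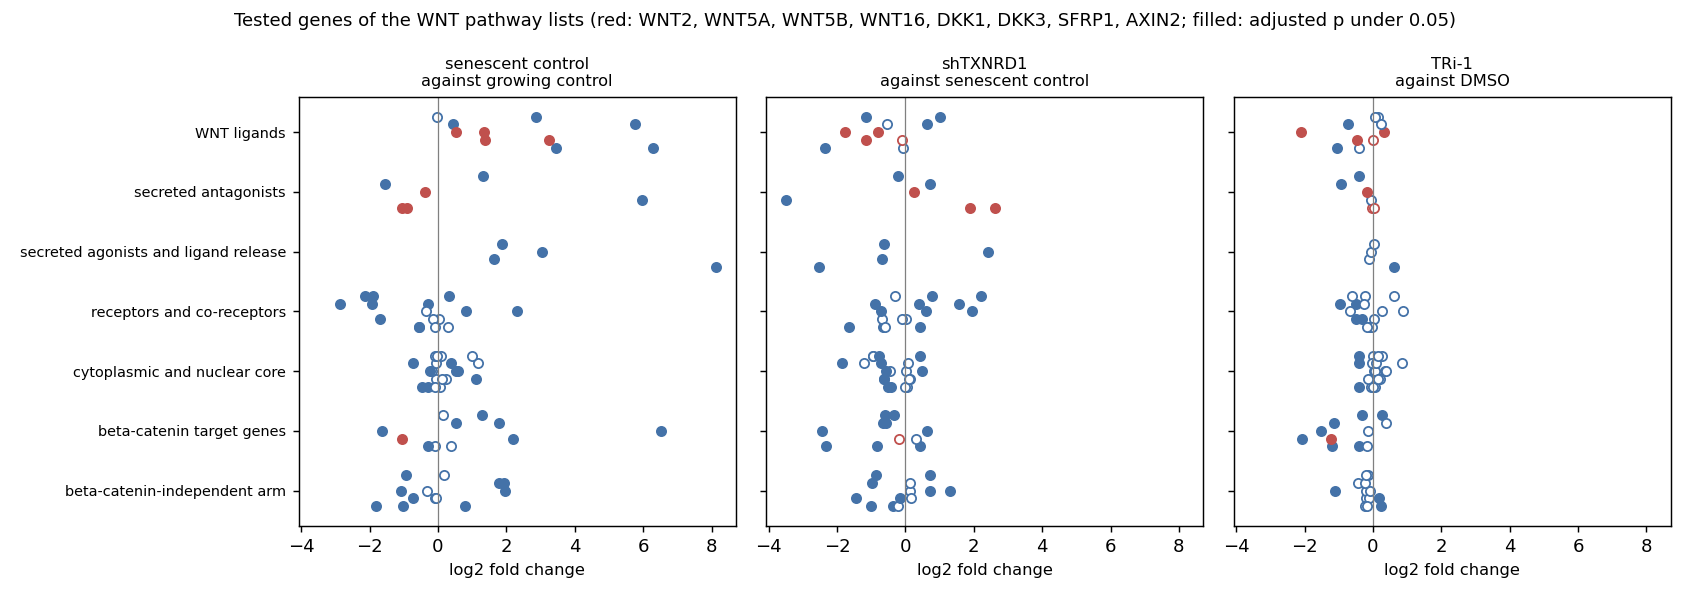
Log2 fold changes of the tested genes of 7 WNT pathway lists in 3 comparisons; red points are the members, filled points passed an adjusted p of 0.05 in edgeR, and vertical offsets only separate points. In senescence 9 of 10 ligands are filled and right of 0, and ligands spread to both sides with the hairpin.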

How the data were processed

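The authors deposited 1 table of unscaled counts by Ensembl identifier, all of them whole. RSEM 1.2.3 and DESeq2, and the builds hg19 and mm10, appear without a role in the submitters' processing notes. The labels give a KAPA RNA HyperPrep kit and paired-end reads. The annotation and the strand setting were not stated in any source used, and without strand DKK1 cannot be told apart from the antisense PRKG1-AS1, whose exons overlap it (GENCODE 29), nor WNT2 from the antisense AC002465.1. AXIN2 shares exon sequence with AC004805.1 on its own strand, and how such reads were divided is not stated. Symbols came by identifier for 52300 of 57736 genes.

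One model with a coefficient per group covered all 15 libraries (edgeR 4.0.16, R 4.3.3, TMM, filterByExpr, robust quasi-likelihood F test, 10 residual degrees of freedom), with calls at an adjusted p under 0.05 in each of 5 comparisons. The SE is the fold change over the root of F. The smallest exact p for 3 against 3 is 0.1, so the tests borrow the spread of other genes. No replicate pair agreed within sampling noise (chi-square per degree of freedom 1.61 to 50.0).

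Besides the members, the text names up to 2 called genes of smallest p per pathway list and comparison. WNT7B and WLS (hairpin), PORCN, WNT11, LRP5, PTK7, CTNNB1 and DKK2 (TRi-1) were added after their values were seen. So were WNT3, FZD3 and the single markers CD68, RGS5, KDR, TEK, EPCAM, KRT18 and CLDN4. Members and lists were chosen with earlier results of these data known. Promoter windows are from RefSeq (GRCh38.p14), matched by symbol. Windows were kept for 7 members, and the absence of SFRP1 among them does not mean that it had no entry. The windows of WNT2, WNT5B, SFRP2 and WIF1 and the other WNT5A window held no match to the motifs searched. The 3 windows printed overlap no annotated UTR or coding base. Alternatives were DESeq2 1.42.0, limma-voom 3.58.1, RLE and upper-quartile scaling, other filters, a replicate term, the compared groups alone and single libraries left out. Fits with library GC content were chosen after seeing the data.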

Additional observations from a re-analysis of the deposited data

Results flagged for a closer look

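The effects of the hairpin and of TRi-1, each against its own control, differed by test for 7 members. The differences (log2, hairpin minus TRi-1) were 2.60 for SFRP1, 1.91 for DKK1, -1.16 for WNT16, -1.11 for WNT5B, 1.04 for AXIN2, 0.44 for DKK3 and 0.39 for WNT5A. For SFRP1, DKK1 and WNT16 the TRi-1 effect itself missed the threshold. The controls differ too: DMSO against senescent control, a term of each difference, was 0.72 for AXIN2, -0.49 for WNT16, 0.34 for SFRP1, -0.56 for DKK1, -0.19 for DKK3, 0.15 for WNT5B and -0.018 for WNT5A.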

How the results depend on the processing

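Of the members' changes recomputed under other settings, 619 kept their direction and side of the threshold, 32 lost a call, 6 gained one and 21 changed sign. The sign changes concern values near 0 that were not called. For WNT16 under TRi-1 these were -0.0065 with RLE scaling, -0.027 with upper-quartile scaling, -0.0068 in DESeq2, -0.00065 in limma-voom, -0.0040 with no filter, -0.028 at a mean CPM of at least 5 and -0.0074 with the compared groups alone, and -0.048 to 0.033 with single libraries left out. For SFRP1 under TRi-1 they were -0.0064 with upper-quartile scaling and -0.0071 at a mean CPM of at least 5. For DKK1 under TRi-1 they were 0.0028 in limma-voom and 0.12 with the GC term, and -0.15 to 0.17 with single libraries left out. For DMSO against senescent control, WNT5A reached 0.0097 with the compared groups alone and ran from -0.058 to 0.0044 with single libraries left out, and WNT2 from -0.053 to 0.20. The number of members called in DMSO against senescent control was 5, and 3 in DESeq2, with no filter and with the replicate block, and 2 to 5 with single libraries left out. Under TRi-1 it was 5, and 3 at a mean CPM of at least 5, where AXIN2 and WNT2 were not tested, and 3 to 4 with single libraries left out. All genes called under TRi-1 were 3176, against 5381 with the compared groups alone and 6664 with the GC term. For DMSO against senescent control they were 2595, against 3981 without the 3 low-GC libraries and 6619 with the GC term. The cause was not tested. Same-numbered libraries showed no steady shared deviation (correlations from -0.279 to 0.321). At most 2 of 6 libraries in a comparison correlated best with their own number. With 3 libraries a group that also differ in GC content, this cannot exclude pairing. Apart from the replicate block, the fits treated the samples as unpaired. With the replicate block the calls over all genes were 8754 for senescence, 7705 for the hairpin, 2743 for TRi-1, 6156 for the difference and 2176 for DMSO, and the members called 8, 6, 5, 7 and 3. Depth limits WNT2, AXIN2 and SFRP2, which have few counts.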
